A study of Mus musculus with 16 samples.

Results

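The chains of IL-12, IL-23 and IL-27 and of their receptors were followed in bone marrow-derived macrophages (BMMs) activated with and without an inhibitor of Notch signaling. The genes were chosen by symbol from the 47069 genes of the count table: Il12a, Il12b, Il23a, Il27 and Ebi3 for the cytokines and Il12rb1, Il12rb2, Il23r and Il27ra for the receptors, 9 genes in all. The BMMs were grown from the bone marrow of C57BL/6 mice aged 8 to 10 weeks in medium conditioned by L929 cells. All cultures were primed overnight with IFNγ (10 ng/mL) and activated for 1 hr with LPS (100 ng/mL) together with IgG-opsonized ovalbumin, an immune complex, a stimulus called LPS/ICs. In 2 libraries the γ-secretase inhibitor (GSI) DAPT was present at 25 μM, and in the other 2 the vehicle DMSO at 0.01%. Both groups received the same priming and activation, and no unstimulated culture was analysed here, so the comparison addresses the effect of the GSI on activated macrophages only.

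IL-12 and IL-23 are secreted heterodimers that share the p40 chain, the product of Il12b. Paired with p35 (Il12a) p40 forms IL-12, which drives T cells and NK cells to make IFNγ, and paired with p19 (Il23a) it forms IL-23, which maintains Th17 cells. IL-27 pairs p28 (Il27) with EBI3. The receptors are built in the same way: Il12rb1 encodes the chain common to both receptors, Il12rb2 the second chain for IL-12 and Il23r that for IL-23, while Il27ra pairs with gp130 (Il6st) to bind IL-27. Activated macrophages and dendritic cells are known producers of the cytokines, and the receptors are best known from T cells and NK cells. γ-Secretase cleaves Notch receptors, releasing the fragment that acts with RBPJ on target genes, and it has other substrates besides Notch.

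Of the 9 chains, 8 had enough counts to be tested with edgeR's quasi-likelihood test, in which a gene was called at a false discovery rate (FDR) under 0.05 over 13211 tested genes. With GSI, 3 were lower (Il12b, Il23a and Ebi3), 2 were higher (Il12rb1 and Il23r) and 3 were not called (Il12rb2, Il27 and Il27ra). Among all tested genes 21.9% were called lower and 19.0% higher, so a call was common. The libraries of the 2 groups did not overlap for 6 of the 8 tested chains, against 70.6% of all tested genes. Il23r was the only chain that also passed an absolute log2 fold change of 1.5, as 2.91% of all tested genes did. The median log2 fold change of the 8 chains was -0.11, beside 0.01 over all tested genes, and the median size of the change was 0.35 beside 0.24. The 3 chains called lower encode cytokine chains and the 2 called higher encode receptor chains. The cytokine chain Il27 and the receptor chains Il12rb2 and Il27ra were not called, and the estimate of Il27ra was negative. With 1 library left out in turn, the log2 fold change of Il23a shrank to as little as -0.27 and that of Ebi3 to -0.17.

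**Figure D1:**
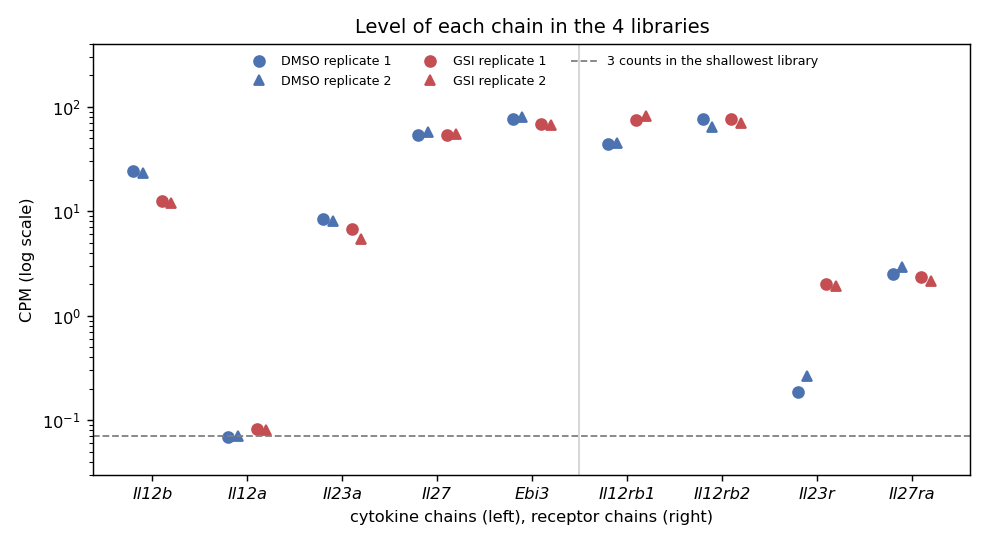
Level (CPM, log axis) of each chain in the 2 DMSO libraries (blue) and the 2 GSI libraries (red), with circles for replicate 1 and triangles for replicate 2. Il12b is lower and Il12rb1 and Il23r are higher in both GSI libraries, and Il12a lies at the dashed line that marks 3 counts in the shallowest library.

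Il12b, which encodes the p40 chain shared by IL-12 and IL-23, lies on chromosome 11 (GRCm38, 44400063 to 44414033, plus strand). With DMSO the libraries held 1052 and 1318 counts and with GSI 601 and 588. As CPM, the count scaled to the library size after TMM adjustment, these were 24.5 and 23.2 CPM with DMSO and 12.4 and 11.9 CPM with GSI. Both GSI libraries lay far below both DMSO libraries, and the libraries of a group differed by little. The transcript fell to 0.511 of its DMSO level (95% interval 0.450 to 0.580), a log2 fold change of -0.97 (standard error 0.0875, edgeR FDR = 2.63e-08). The 8 columns deposited for each group held 247 to 349 counts each with DMSO and 120 to 165 with GSI. These columns are parts of the same 2 libraries per group and are not replicates. With 1 library left out in turn, the log2 fold change ranged from -1.01 to -0.93.

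Il12a, the gene of the p35 chain that completes IL-12, is on chromosome 3 (68690644 to 68698547, plus strand). It had 3 and 4 counts with DMSO and 4 in each GSI library, in libraries of at least 42694655 counts. These values stand at the floor of 3 counts, and no fold is given. The exact Poisson intervals, which cover counting error only, reached 10.2 counts, or at most 0.211 CPM in any library. A difference in Il12a between the groups was not detectable at this depth. At 1 hr of activation, reads of Il12b were thus counted in both groups beside only a few of its IL-12 partner.

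Il23a, the gene of the p19 chain of IL-23, is on chromosome 10 (128296139 to 128298752, minus strand). Counts were 362 and 455 with DMSO and 329 and 267 with GSI. The levels were 8.41 and 8.02 CPM with DMSO and 6.81 and 5.41 CPM with GSI. Both GSI libraries were lower, and they differed from each other by more than the DMSO libraries did. The fold was 0.744 (95% interval 0.624 to 0.887), a log2 fold change of -0.43 (standard error 0.121, edgeR FDR = 0.00795). The call rested on the second GSI library: without it the log2 fold change was -0.27 and the FDR 0.115, and the number of chains called lower dropped from 3 to 1. Without the other libraries, in turn, the change was as large as -0.60.

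The IL-27 chains had the highest levels per length of the family and changed little. Ebi3, on chromosome 17 (55952640 to 55957022, plus strand), had 76.6 and 80.2 CPM with DMSO and 69.0 and 67.2 CPM with GSI. Both GSI libraries were below both DMSO libraries by more than the libraries of either group differed from each other. The log2 fold change was -0.20 (standard error 0.0707, edgeR FDR = 0.0269), and the fold was 0.869 (95% interval 0.784 to 0.963). The call was lost without the first DMSO library (-0.24, FDR 0.0520), the second DMSO library (-0.17, FDR 0.181) or the second GSI library (-0.18, FDR 0.0952). A total of 270 exon bases of Ebi3 lie opposite exons of Gm16712, which had 65 and 82 counts with DMSO and 12 and 9 with GSI, while Ebi3 itself had 3294 to 4549 counts. The groups also stood apart in the lower quartile of such opposite-strand counts. It was taken over 231 genes with at least 100 shared exon bases. Each had a mean of at least 1000 overlapping counts of the opposite gene, estimated from the shared length. Per 1000 such counts, the lower quartile stood at 13.3 and 11.3 in the vehicle group against 2.53 and 1.02 in the GSI group. The part of this in the values of Gm16712 and Ebi3 was not tested.

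Il27, the gene of p28, is on chromosome 7 (126589010 to 126594941, minus strand). It had 53.5 and 56.9 CPM with DMSO and 53.3 and 55.4 CPM with GSI, and the groups overlapped. Its log2 fold change was -0.02 (95% interval -0.18 to 0.13, edgeR FDR = 0.826). As a fold this interval ran from 0.885 to 1.09. A stretch of 103 exon bases lies opposite exons of Apobr, which had 9592 to 15925 counts against 2304 to 3230 of Il27. Il27ra, which encodes the IL-27 receptor chain, is on chromosome 8 (84030294 to 84042589, minus strand). It had 2.51 and 2.91 CPM with DMSO and 2.34 and 2.17 CPM with GSI. The groups did not overlap, yet the log2 fold change of -0.27 (95% interval -0.62 to 0.07, edgeR FDR = 0.200) did not pass the test.

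**Figure D2:**
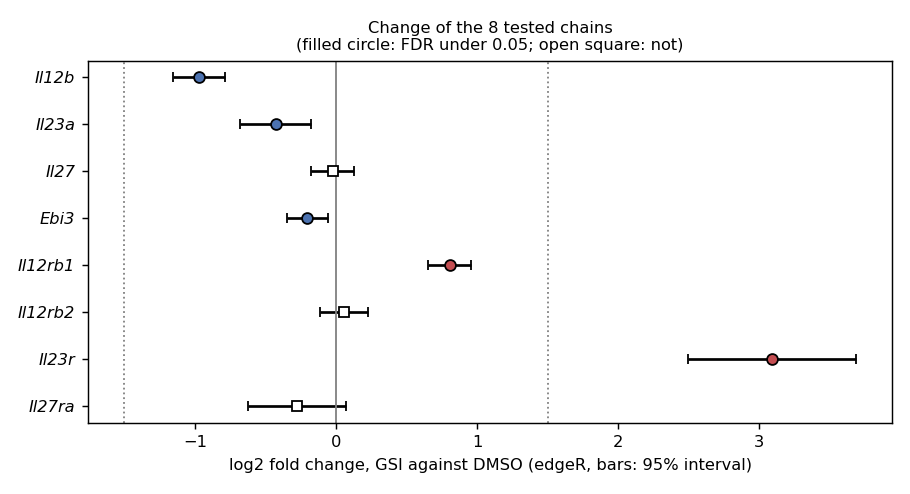
Log2 fold change, GSI against DMSO, of the 8 tested chains with 95% intervals from edgeR on 2 libraries per group. Filled circles mark an FDR under 0.05 (blue lower, red higher), open squares the other chains, and dotted lines an absolute log2 fold change of 1.5, which Il23r alone passes.

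Il23r encodes the chain that gives the IL-23 receptor its specificity and lies on chromosome 6 (67422932 to 67491855, minus strand). It was barely detected with DMSO, at 0.186 and 0.264 CPM from 8 and 15 counts. With GSI it had 2.01 and 1.94 CPM from 97 and 96 counts. The deposited columns held 17 to 32 counts each with GSI and 1 to 8 with DMSO. As parts of the same libraries they are not replicates. The transcript rose 8.50-fold (95% interval 5.63 to 12.9), a log2 fold change of 3.09 (standard error 0.285, edgeR FDR = 3.71e-08), and 99.9% of tested genes had a smaller log2 fold change. With 1 library left out in turn the log2 fold change ranged from 2.89 to 3.39. Il23r passed the count filter only through the GSI libraries, where it was high. A filter of at least 10 counts in every library removed it.

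Il12rb1, the gene of the chain shared by the IL-12 and IL-23 receptors, lies on chromosome 8 (70808449 to 70821424, plus strand). Its counts were 1892 and 2576 with DMSO and 3650 and 3995 with GSI. The levels were 44.0 and 45.4 CPM with DMSO and 75.5 and 80.9 CPM with GSI. Both GSI libraries were well above both DMSO libraries. Il12rb1 rose 1.75-fold (95% interval 1.57 to 1.95), a log2 fold change of 0.81 (standard error 0.0732, edgeR FDR = 2.86e-08), and the value ranged from 0.76 to 0.86 with 1 library left out in turn.

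Il12rb2, the gene of the chain specific to IL-12, lies next to Il23r on chromosome 6 (67291318 to 67376188, minus strand), with 46743 bp between the genes and both on the same strand. It had 76.1 and 64.8 CPM with DMSO and 76.0 and 70.2 CPM with GSI, so that the groups overlapped. The log2 fold change was 0.05 (95% interval -0.11 to 0.22, edgeR FDR = 0.624). Of these adjacent genes, one rose with GSI by 5.63-fold at the lower bound of its interval, while the interval of the other ended at 1.17-fold. Exons of Il12rb2 share 1519 bases with exons of Serbp1 on the other strand. Serbp1 had 7290 to 10103 counts and Il12rb2 3276 to 3677, and the shared bases are 7.55% of the exon length of Serbp1. Reads within the shared bases were not counted separately, and the part of Serbp1 reads in the value of Il12rb2 was not tested.

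The upstream sequences of Il12b, Il23r and Il12rb2 are shown because Il12b and Il23r changed most in opposite directions and Il12rb2, the neighbour of Il23r, was not called. Each runs from 250 bases before to 50 bases after the transcription start given by RefSeq (GRCm38.p6), 5′ to 3′ on the strand of the gene. The regions are chr11:44399813-44400112 (plus strand) for Il12b, chr6:67491806-67492105 (minus strand) for Il23r and chr6:67376139-67376438 (minus strand) for Il12rb2. Capitals mark matches to any of 8 motifs searched on both strands.
Il12b: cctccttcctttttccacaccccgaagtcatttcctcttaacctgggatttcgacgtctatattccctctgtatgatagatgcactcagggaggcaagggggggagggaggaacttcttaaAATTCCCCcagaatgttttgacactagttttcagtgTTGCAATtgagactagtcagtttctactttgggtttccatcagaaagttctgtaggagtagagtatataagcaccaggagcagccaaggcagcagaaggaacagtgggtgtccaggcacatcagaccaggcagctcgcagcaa
Il23r: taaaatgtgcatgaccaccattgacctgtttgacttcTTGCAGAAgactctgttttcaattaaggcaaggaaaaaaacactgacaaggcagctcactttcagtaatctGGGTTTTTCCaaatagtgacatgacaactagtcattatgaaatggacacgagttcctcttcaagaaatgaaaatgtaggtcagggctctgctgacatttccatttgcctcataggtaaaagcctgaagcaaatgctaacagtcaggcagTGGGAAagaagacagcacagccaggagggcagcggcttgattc
Il12rb2: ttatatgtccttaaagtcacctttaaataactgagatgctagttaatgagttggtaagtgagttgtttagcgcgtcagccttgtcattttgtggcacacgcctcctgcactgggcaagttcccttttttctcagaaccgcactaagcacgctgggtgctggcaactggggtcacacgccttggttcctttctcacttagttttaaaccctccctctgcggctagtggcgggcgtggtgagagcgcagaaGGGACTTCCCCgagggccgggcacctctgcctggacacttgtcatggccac
The motifs, with the share of 32851 RefSeq promoters of the same length that held each, were TGGGAA, the core of the RBPJ site (25.6%), GGGNNNNNCC for NF-κB (50.8%), TTGCNNAA for C/EBP (10.8%), TGANTCA for AP-1 (7.81%), GAAANNGAAA for IRF factors (3.44%) and TATAAA, the TATA box (13.6%). Shorter forms of the NF-κB and C/EBP sites, GGGGAATT (0.846%) and TTGCAAT (2.22%), were added with the Il12b sequence in view. In Il12b only these shorter forms matched, GGGGAATT on the other strand from -129 to -122 and TTGCAAT from -93 to -87, counted from the start site. Il23r held TTGCAGAA from -213 to -206, GGGTTTTTCC from -142 to -133 and TGGGAA from 8 to 13 bases into the transcript. Il12rb2 held GGGACTTCCC at the start site itself, with a second, overlapping match to the same motif on the other strand, and no TGGGAA. With these shares most matches were common among promoters, and a match is a run of letters and not a measured site. RefSeq promoters were matched for 5 of the 9 genes, and Il23a, Il12rb1, Il27 and Il27ra were not among them.

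Levels of different genes can be compared only per length, here as CPM per kilobase (kb) of merged exons. With DMSO the mean of 2 libraries was 67.9 for Ebi3, 54.1 for Il27, 18.6 for Il12rb2, 12.1 for Il12b, 10.9 for Il12rb1, 3.66 for Il23a, 0.775 for Il27ra, 0.0905 for Il23r and 0.0412 for Il12a. With GSI 2 pairs of neighbours in this order changed places. Il12rb1, at 19.1, passed Il12b, at 6.19, and came close to Il12rb2, at 19.3. Il23r, at 0.794, passed Il27ra, at 0.644. The libraries of Il12rb1 and Il12rb2 overlapped with GSI (18.4 and 19.7 for Il12rb1, 20.0 and 18.5 for Il12rb2), and no test between genes was made. When the longest transcript was used as gene length, Il12b and Il12rb1 changed places with DMSO and Il12rb1 and Il12rb2 changed places with GSI, so that those orders depend on the length chosen.

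Since the proteins work as pairs, the ratio of 2 chains, each per kb, was taken within each library, where library scaling cancels. Il23a stood to Il12b at 0.301 and 0.302 with DMSO and at 0.479 and 0.397 with GSI. Both transcripts of IL-23 fell, and the ratio was higher in both GSI libraries. Il27 stood to Ebi3 at 0.791 and 0.803 with DMSO and at 0.873 and 0.932 with GSI. Among the receptor chains, Il23r stood to the common chain Il12rb1 at 0.00698 and 0.00961 with DMSO and at 0.0438 and 0.0396 with GSI. Il12rb2 stood to the common chain at 1.87 and 1.54 with DMSO and at 1.09 and 0.939 with GSI. All 4 ratios separated the groups, but with 2 libraries against 2 the exact permutation test (two-sided) gave p = 0.333 for each, the smallest it allows, so the ratios are a description. The ratio of Il12a to Il12b rests on 3 or 4 counts of Il12a and is not read.

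**Figure D3:**
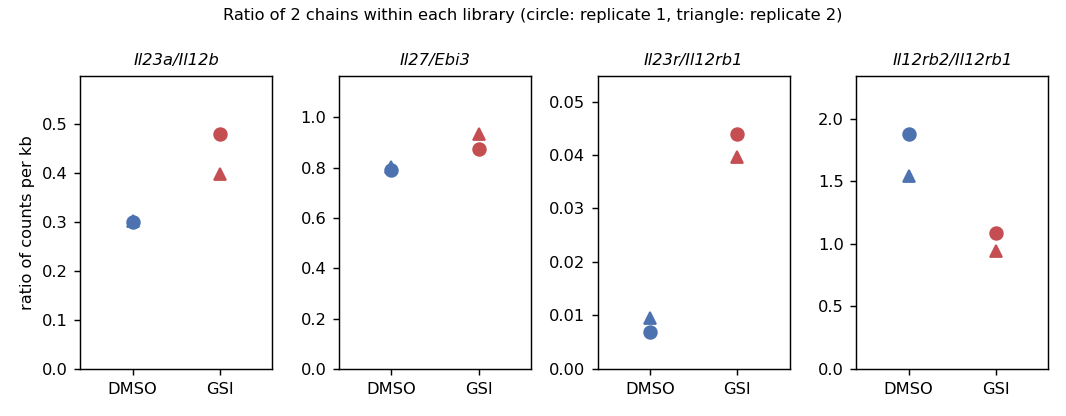
Ratio of 2 chains, each as counts per kb of merged exons, in the 2 DMSO libraries (blue) and the 2 GSI libraries (red); each panel has its own axis starting at 0. Il23a to Il12b and Il23r to Il12rb1 are higher with GSI, and Il12rb2 to Il12rb1 is lower, at 1.09 and 0.939 against 1.87 and 1.54.

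Downstream of the receptors, the kinases TYK2 and JAK2 phosphorylate STAT factors, chiefly STAT4 for IL-12 and STAT3 for IL-23. Of 11 genes of this signalling chain, all tested, 5 were called lower, 1 higher and 5 not, with a median log2 fold change of -0.06. Over all tested genes, 21.9% were called lower and 19.0% higher. Stat4 was the lowest, at 5.18 and 4.65 CPM with DMSO and 2.54 and 3.02 CPM with GSI (log2 fold change -0.82, standard error 0.145, edgeR FDR = 0.000136). Jak2 went from 286 and 278 CPM to 194 and 199 CPM, a log2 fold change of -0.52 (standard error 0.0689, edgeR FDR = 4.24e-06). Stat4 and Jak2 thus fell in the same libraries in which the receptor chains Il12rb1 and Il23r rose. Stat3 changed by -0.21 on the log2 scale (standard error 0.0715, edgeR FDR = 0.0221), a call lost without the first GSI library or either DMSO library. Socs1, an inhibitor of JAK kinases, had 39.0 and 43.2 CPM with DMSO and 58.7 and 54.5 CPM with GSI (log2 fold change 0.46, standard error 0.0776, edgeR FDR = 7.46e-05). Tyk2, Socs3, Ptpn2 and Il6st, the partner of Il27ra, were among those not called. The number called lower was 2 without the first or the second DMSO library and 3 without the first GSI library.

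Transcription factors known to act on the cytokine chain genes were examined as a list of 19 genes. Of these, 17 were tested, with a median log2 fold change of -0.01. In this list 5 were called lower and 1 higher, beside 21.9% and 19.0% of all tested genes. Rel encodes c-Rel, an NF-κB subunit known to be needed for Il12b transcription in macrophages. It had 489 and 487 CPM with DMSO and 286 and 305 CPM with GSI, with both GSI libraries far below, and its log2 fold change was -0.72 (standard error 0.0712, edgeR FDR = 9.11e-08). Nfkb1, the gene of the p105/p50 subunit, changed by -0.44 on the log2 scale (standard error 0.0701, edgeR FDR = 4.20e-05). Bcl3, which binds p50 dimers, had one of -0.48 (standard error 0.0777, edgeR FDR = 4.90e-05). Batf, an AP-1 family factor, rose from 7.46 and 6.68 CPM to 11.8 and 10.4 CPM, a log2 fold change of 0.66 (standard error 0.109, edgeR FDR = 6.28e-05). Rela, Irf1, Irf5, Irf8, Spi1 and Rbpj, the gene of the DNA-binding partner of cleaved Notch, were not called, although Irf8 was called lower without the first GSI library (-0.23, FDR 0.0330). The Notch target Hes1 had 5 and 2 counts with DMSO and 1 and 5 with GSI, and Hey1 at most 5 counts, too few to test. Without the second GSI library 3 factors were called higher.

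**Figure D4:**
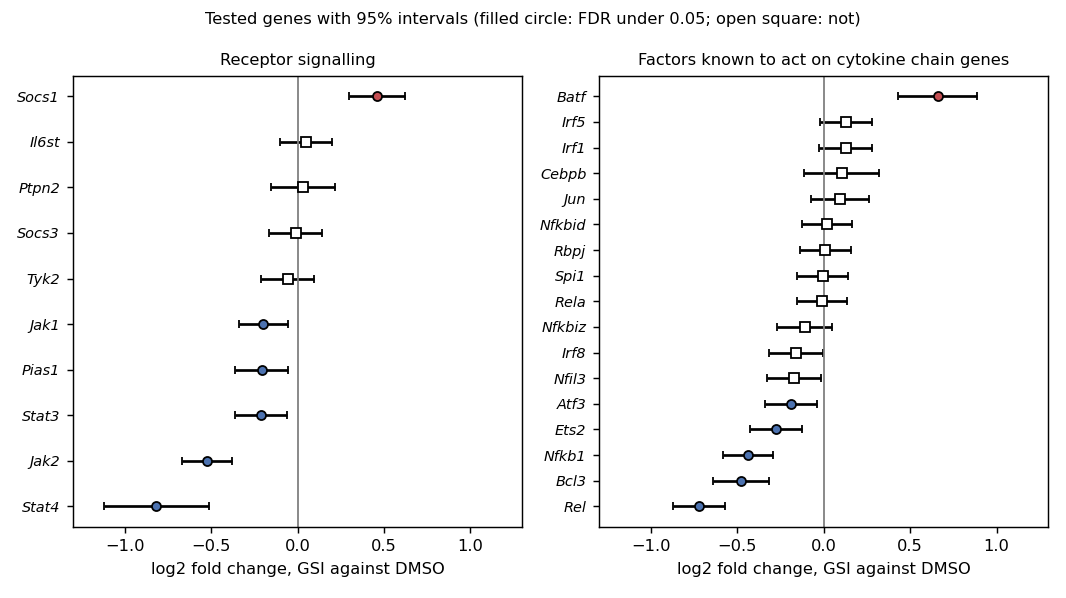
Log2 fold changes, GSI against DMSO, with 95% intervals of 10 of the 11 receptor signalling genes (left) and the 17 tested transcription factors (right). Filled circles mark an FDR under 0.05 (blue lower, red higher) and open squares the other genes; Stat4 and Rel are the lowest of their lists and Socs1 and Batf the highest.

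Of 15 genes that IL-12 and IL-23 are known to induce or rely on in lymphocytes, 8 had 0 counts in all 4 libraries, among them Ifng, Il17a, Il21 and Il22, which allows each a level of up to 0.0703 CPM. Of the 6 tested, 4 were called lower, beside 21.9% of all tested genes, and 2 were not called. Tbx21, the gene of T-bet, had 39 and 67 counts in DMSO and 32 and 13 in GSI libraries, and its log2 fold change was -1.19 (standard error 0.333, edgeR FDR = 0.00717). The call was lost without the second GSI library (-0.67, FDR 0.116), without the second DMSO library (-0.97, FDR 0.0677) and with DESeq2 (FDR 0.0794). Ahr, which encodes a receptor for aromatic ligands, changed by -0.45 on the log2 scale (standard error 0.109, edgeR FDR = 0.00229) and Maf, a factor known to act on Il10, one of -0.37 (standard error 0.0762, edgeR FDR = 0.000531). Il18rap, the IL-18 receptor accessory chain, had one of -0.29 (edgeR FDR = 0.0232), which was lost with DESeq2 (FDR 0.0787) and without the second DMSO library or the first GSI library.

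Because the receptor chains are best known from lymphocytes and the cytokine chains are also made by dendritic cells, markers of these cells were read in the same libraries. In bulk RNA, fewer cells of a type and less RNA per cell cannot be told apart. Of 12 T and NK cell markers, 7 had at most 3 counts in every library, and Cd3g, Nkg7 and Ncr1 had 0. Cd3e had 0 counts in both DMSO libraries and 1 and 2 with GSI, and Cd3d had at most 1. The summed level of the list was 33.3 to 38.1 CPM with DMSO and 31.9 to 32.8 CPM with GSI, and Klrk1 alone made up most of it. Without Klrk1 the other 11 markers summed to 2.53 and 2.47 CPM with DMSO and to 7.49 and 6.64 CPM with GSI, most of it from Cd247 and Lck. Within it Cd247, which encodes the CD3 zeta chain, rose together with Il23r, from 0.790 and 0.864 CPM to 3.66 and 3.79 CPM, a log2 fold change of 2.16 (standard error 0.187, edgeR FDR = 1.42e-08). Lck, a kinase of the T cell receptor, rose from 1.19 and 1.02 CPM to 2.71 and 2.13 CPM (log2 fold change 1.14, edgeR FDR = 0.000147), and Klrk1, the gene of the NK receptor NKG2D, fell from 35.6 and 30.9 CPM to 25.3 and 25.2 CPM (log2 fold change -0.39, edgeR FDR = 0.000845). The part of T and NK cells in the rise of Il23r was not tested beyond these values.

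Of 8 dendritic cell markers, 5 were tested and 2 were called lower, as Il12b was, beside 21.9% of all tested genes. Clec9a, a lectin of cross-presenting dendritic cells, had 181 and 174 CPM with DMSO and 109 and 111 CPM with GSI (log2 fold change -0.69, edgeR FDR = 1.20e-07) and made up most of the summed level, which was 181 to 188 CPM with DMSO and 115 to 117 CPM with GSI. Xcr1 had a log2 fold change of -0.42 (edgeR FDR = 0.0175), lost with DESeq2 (FDR 0.122) and without the first DMSO or the second GSI library. Flt3 had at most 2 counts in any library, Zbtb46 had 10 to 19, and Siglech and Cd209a had 0. The part of these genes in the fall of Il12b was not tested. Macrophage markers were abundant, and 6 of 8 were called lower and 1 higher, beside 21.9% and 19.0% of all tested genes. Their summed level was 12278 and 12485 CPM with DMSO and 9489 and 10414 CPM with GSI. Cd14, the LPS co-receptor, had a log2 fold change of -0.64, Itgam one of -0.63 and Csf1r one of -0.56, and Mertk, a receptor for apoptotic cells, one of 0.64 (edgeR FDR = 1.60e-06, 1.15e-06, 3.43e-05 and 1.62e-06). The fall of Il12b was thus larger than that of each of these markers in log2 fold change, and the difference was not tested. Of 5 B cell and 7 neutrophil markers, 1 and 2 had enough counts to test, their unadjusted p with edgeR was 0.145 or more, and each list summed to at most 1.29 CPM.

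The genes whose pattern over the 4 libraries was closest to Il12b, by Euclidean distance of log2 CPM centred on each gene, were Hlx, Kif24 and Zscan2 (distances 0.0289, 0.0339 and 0.0463). Zscan2 had only 13 to 30 counts, and its call was lost with DESeq2 (FDR 0.250) and without each library in turn (FDR 0.105 to 0.121). Hlx, a homeobox factor, had 18.4 and 17.8 CPM with DMSO and 9.29 and 9.05 CPM with GSI. Closest to Il23r were F10, Gja4 and Wdr20rt (0.306, 0.313 and 0.323). F10, the gene of coagulation factor X, had 3.18 and 3.33 CPM with DMSO and 29.5 and 25.9 CPM with GSI, and Gja4, a gap junction gene, had 5 and 7 counts with DMSO and 66 and 55 with GSI. Only 4 libraries enter each distance, and it mainly reflects the size of the difference between the groups.

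Leaving aside genes that overlap a chain, such as Serbp1 and Apobr, the nearest protein-coding genes on either side of the 9 chains numbered 16 besides the chains themselves, of which 11 were tested. Of these, 4 were called higher, beside 19.0% of all tested genes, and 7 were not called. Of the overlapping genes, Apobr was called lower (log2 fold change -0.43, edgeR FDR = 8.91e-05) and Serbp1 was not called. The neighbours of Il12b and Il23a that were called went the other way from these chains. Ublcp1, 40537 bp from Il12b, had 19.7 and 17.3 CPM with DMSO and 24.0 and 22.8 CPM with GSI, and its call was lost without the second DMSO library (FDR 0.0830). Stat2, a factor of type I interferon signalling 3289 bp from Il23a and on the other strand, had 206 and 201 CPM with DMSO and 279 and 246 CPM with GSI (log2 fold change 0.37). Arrdc2, 13704 bp from Il12rb1, was higher with GSI like that chain (log2 fold change 0.47), a call lost without the first DMSO library (FDR 0.245) and with DESeq2 (FDR 0.135). Nupr1, near Il27, had 80.2 and 68.3 CPM with DMSO and 108 and 77.4 CPM with GSI, so that the groups overlapped. Its call (0.32) was lost without the first GSI library (0.06, FDR 0.620), without the second DMSO library (FDR 0.150) and with DESeq2 (FDR 0.412).

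**Figure D5:**
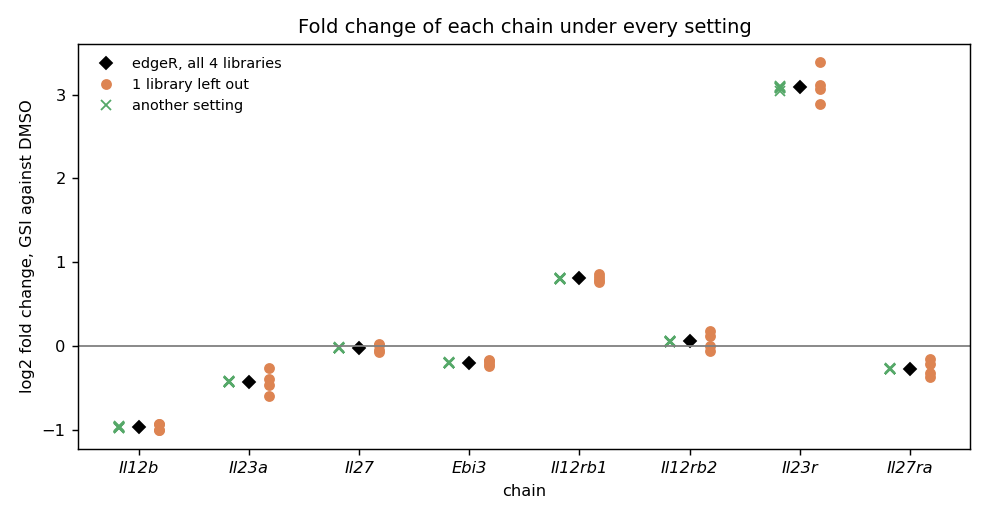
Log2 fold change, GSI against DMSO, of the 8 tested chains with all 4 libraries (black diamonds), with 1 library left out in turn (orange circles) and with other settings such as DESeq2 or another normalization (green crosses). The values of Il12b, Il12rb1 and Il23r stay on their side of 0, and Il23a moves most among the chains called lower, from -0.60 to -0.27.

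Across the settings tried, the fold changes of the chains moved more when a library was left out than when the normalization, filter or tool was changed. For Il12b the other settings gave -0.98 to -0.96, for Il23a -0.44 to -0.42, for Il12rb1 0.80 to 0.81 and for Il23r 3.05 to 3.11. Il12rb2 and Il27, neither of which was called, changed sign with 1 library left out, at -0.06 to 0.17 and -0.07 to 0.02.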

How the data were processed

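The authors deposited raw counts per Ensembl gene. Per the study's methods and the submitters' processing notes, poly(A) libraries were strand-specific, adapters were trimmed with Trimmomatic, and reads were aligned with STAR (2.5.0a) to mm10 (GRCm38) and counted with HTSeq, whose mode and strand setting are not given in the sources used here. The notes also name mm9. The methods place the GSI overnight before activation, whereas other parts of the paper describe a briefer pretreatment, so the length of exposure here is uncertain.

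The labels give 2 replicates per group and 4 numbered columns per replicate, without defining the number. The 4 columns differed by about the sampling noise (chi-square per degree of freedom 1.01 to 1.03) and were summed to 4 libraries of 42694655 to 56932059 counts. The floor of 3 counts was 0.0527 to 0.0703 CPM. Floors and Poisson intervals (95%) cover counting error only. The labels do not say that replicates came from separate cultures, so p-values measure only the spread between these samples, which may be technical.

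Genes were tested with edgeR 4.0.16 in R 4.3.3 (filterByExpr, TMM, glmQLFit and glmQLFTest with group as the only factor, Benjamini-Hochberg adjustment over 13211 genes; standard error, absolute log2 fold change over the square root of F). CPM used TMM-adjusted library sizes, except for floors, Poisson bounds and single columns, which used unadjusted totals. Positions and exon lengths came from GENCODE M21, which held 98.9% of the gene IDs. The fold changes of tested named genes, except Apobr, Serbp1 and Gm16712, were recomputed under other settings wherever a gene passed that setting's filter. So were the call counts of all genes, members, signalling genes and factors. The settings were DESeq2 1.42.0, RLE factors, no factors, no filter and only genes of 10 or more counts in all libraries. Others were a replicate block, the 16 columns as samples, and each library left out in turn. Ratios were recomputed without each library, and ratios and ranks with the longest transcript as length. Call counts of the other lists and of neighbours were not recomputed. With 1 library left in a group, that library was assumed to vary like the other group. The scripts were tested on simulated data.

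The members and lists were chosen with earlier results of these data known. Beside all members, the genes named were the 4 largest changes at FDR under 0.05 in the signalling and factor lists, called genes of the other lists (at most 4 by size), the 3 nearest patterns to Il12b and to Il23r, and the nearest protein-coding neighbours that do not overlap a member. Genes named as not called, as too few to test or as markers at 0 were added after their values were seen. A few genes of the lists are not reported here by name.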

Additional observations from a re-analysis of the deposited data

How the results depend on the processing

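Under other settings, 78 of 87 fold changes of the 8 tested chains kept their direction and side of the threshold. So did 417 of 455 of the 42 other named genes. Of 126 counts, ranks and ratios, 113 stayed within a wide limit. It took in 7582 genes called with the 16 columns as samples and 4063 with DESeq2, against 5392. The ratios, that of Il12a to Il12b among them, all stayed within it, which says nothing about their stability. Gene length cancels in their difference between groups, and leaving out 1 of 2 libraries moves a group mean only within the spread of those libraries. No call changed sign. With 1 library left out in turn, 1 to 3 chains were called lower, Il23a ranged from -0.60 to -0.27 and Ebi3 from -0.24 to -0.17 (log2), 2 to 4 signalling genes were called lower and 1 to 3 factors higher. Genes not called changed sign in the same way: Il12rb2 (-0.061 to 0.17), Il27 (-0.068 to 0.019), Socs3 (-0.042 to 0.018), Ptpn2 (-0.12 to 0.17), Rela (-0.038 to 0.011), Spi1 (-0.037 to 0.026, and 0.0019 without the filter) and Rbpj (-0.049 to 0.068). Requiring at least 10 counts in every library removed Il23r, which left 1 chain called higher, 0 past both thresholds and 154 genes past both in all. With 16 columns as separate samples, 178 genes passed both thresholds, 8 factors were called lower and 4 higher, and Il27ra was called (-0.28, FDR 0.0483); columns of 1 library are not replicates. With the longest transcript as length, 2 chains changed rank with DMSO and 2 with GSI. The fit with the replicate block called 6444 genes against 5392, 3 chains lower and 2 higher as before, and 7 factors lower against 5. Of the named genes that were recomputed, it added the call of Irf8 (-0.16, FDR 0.0421) and lost none. Same-numbered libraries deviated together only weakly (r = 0.249 over 7581 genes), and with 2 pairs the libraries share only a number. The median log2 fold change of all genes was 0.01 under every scaling. Depth limits Il12a, Hes1 and Hey1, which could not be tested, and 2 libraries per group limit the rest. The lower quartile of opposite-strand counts also differed between the groups, and its part in genes with few counts was not tested.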
